A study of Oryctolagus cuniculus with 4 samples.

Results

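C1Q macrophages of the rabbit bladder mucosa were described at single-cell resolution in 2 normal rabbits (Normal_1 and Normal_2) and in 2 rabbits on day 10 after focal resection of the bladder mucosa (Injury_1 and Injury_2). The cells were chosen by detection: a cell entered when at least 3 of the 6 genes C1QA, C1QB, C1QC, CSF1R, MRC1 and CD163 had a unique molecular identifier (UMI, a tag that lets each captured RNA molecule be counted once), when the fibroblast genes DCN and LUM together held under 0.5% of its UMIs, and when fewer than 2 of the 4 lymphocyte genes ZAP70, CD2, TNFRSF25 and SKAP1 were detected. Of 21945 cells kept in the series, 431 met the rule and are called the members here: 234 of 6081 in Injury_1, 109 of 5529 in Injury_2, 33 of 4308 in Normal_1 and 55 of 6027 in Normal_2. The rule used the readout of those genes, so their values are given as a description and are not tested.

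All 4 animals were adult New Zealand rabbits, and each gave 1 library of mucosa dissociated with collagenase. The injured mucosa was taken when new urothelium had just covered the wound, and the normal mucosa came from bladders under homeostasis with no sham operation described. Although the tissue was labelled urothelium, 8022 of the kept cells had at least 0.5% of their UMIs in DCN and LUM, so the dissociated mucosa held much stroma. The libraries contained 28745017 UMIs in Normal_1 and between 46395632 and 47881609 in the other 3, which makes Normal_1 the shallowest. Pairs of libraries shared 8 to 13 cell barcodes, and no member's barcode occurred in another library. The labels do not tie a rabbit of one group to a rabbit of the other. All p-values rest on these 4 libraries, and the gene tests estimate the spread in part across all genes.

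Macrophages are resident phagocytes that clear dying cells and debris, present antigen and release factors that steer repair. C1q, assembled from the chains encoded by C1QA, C1QB and C1QC, is the recognition molecule that starts the classical complement pathway, and in tissues it is made mainly by macrophages. After wounding, blood monocytes enter the tissue and become macrophages beside those that were there before, and the cells with scavenger receptors such as CD163 and MRC1 are often those that lie in the connective tissue around vessels.

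Label and marker genes were compared first. AIF1, a cytoplasmic actin-binding protein of macrophages that the rule did not use, was detected in 99.6% of the members of Injury_1 and in 100% of those of the other 3 libraries, against 0.588 to 2.44% of the fibroblasts. CD68, a lysosomal membrane protein, was detected in 84.9 to 100% of the members, but also in 26.8 to 34.6% of the fibroblasts, and is less specific here. PTPRC, the leukocyte phosphatase CD45, was detected in 91.5%, 89.0%, 60.6% and 70.9% of the members of Injury_1, Injury_2, Normal_1 and Normal_2. The median member held 6578, 5677, 2863 and 4977 UMIs in the same order, so that detection had the least depth in Normal_1.

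The C1Q in the name held for a part of the cells. In Injury_1, 148 members had a UMI of at least 1 C1Q chain and 86 had none, having entered through CSF1R, MRC1 and CD163 together. The numbers were 72 and 37 in Injury_2, 30 and 3 in Normal_1, and 48 and 7 in Normal_2. The split was nearly all or nothing: 140, 68, 28 and 48 members of the 4 libraries held 6 or more C1Q UMIs, and 8, 4, 2 and 0 held between 1 and 5. Members without a C1Q UMI were as deep as those with one in the injured libraries, with medians of 6432 against 6606 UMIs in Injury_1 and 5473 against 5956 in Injury_2. The members are therefore macrophages by their rule, with C1Q transcripts found in most but not in all of them.

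Levels of the rule's own genes are given as UMIs of the summed members scaled to a common total (CPM), a scale on which each gene is compared with itself across samples and not with another gene. C1QA stood at 3462 and 2604 CPM in Injury_1 and Injury_2, and at 5264 and 7648 CPM in Normal_1 and Normal_2. C1QB stood at 1808 and 1522 CPM in the injured and at 1967 and 3006 CPM in the normal libraries, and C1QC at 893, 699, 992 and 962 CPM in the same order. All 3 chains were lower in both injured libraries, the C1QC gap being small, and the cells without any C1Q UMI belong to the injured sums for the most part. Among C1Q-detected members alone, C1QA stood at 5338, 3892, 5989 and 8628 CPM in Injury_1, Injury_2, Normal_1 and Normal_2, still without overlap. C1QB stood there at 2788, 2275, 2238 and 3391 CPM and C1QC at 1376, 1045, 1128 and 1085 CPM, and their groups overlapped.

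The receptors of the rule went different ways. MRC1, the mannose receptor CD206, stood at 1041 and 1175 CPM in the injured members and at 1983 and 1566 CPM in the normal ones. CSF1R, the receptor for the growth factor on which macrophages depend, stood at 1221, 1179, 451 and 1262 CPM, with only Normal_1 low. CD163, the scavenger receptor for haemoglobin bound to haptoglobin, stood at 297, 227, 355 and 167 CPM, and its groups overlapped. At the edge of the rule, the 97 members of Injury_1 with just 3 markers held 82.2 CPM of C1QA and 1165 CPM of CSF1R, and the 118 cells left out with 2 markers held 4.20 and 597 CPM. The 41 such members of Injury_2 held 74.4 and 924 CPM, and its 147 cells with 2 markers held 0 CPM of C1QA and 678 CPM of CSF1R. In both injured libraries the edge of the rule thus lay within cells that carried CSF1R and little C1Q. The normal libraries had few cells at the edge, 6 inside and 7 outside in Normal_1 and 9 inside and 11 outside in Normal_2.

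The members made up 3.85% of the kept cells in Injury_1 (95% Wilson interval 3.39 to 4.36), 1.97% in Injury_2 (1.64 to 2.37), 0.766% in Normal_1 (0.546 to 1.07) and 0.913% in Normal_2 (0.702 to 1.19). These intervals cover counting error only, not the difference between rabbits. Both injured shares lay above both normal shares, with means of 2.91 ± 1.33% and 0.839 ± 0.104% (SD, n = 2 each), a difference of 2.07 percentage points. The two-sided exact permutation test gave p = 0.33, the smallest value that 2 samples against 2 allow. With each cell thinned to 1000 UMIs before the markers were counted, the shares were 2.19%, 1.06%, 0.596% and 0.697%, still without overlap but with a difference of 0.974 points. Between 115 and 226 kept cells per library had fewer UMIs and were left out of that count.

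The share was also taken among cells with a leukocyte transcript. Cells with a PTPRC UMI numbered 1387, 941, 228 and 241 in Injury_1, Injury_2, Normal_1 and Normal_2, and the members with such a UMI were 15.4%, 10.3%, 8.77% and 16.2% of them. On that denominator the groups overlapped, with a difference of 0.391 points (exact permutation p = 1, two-sided). PTPRC was detected in 91.5%, 89.0%, 60.6% and 70.9% of the members in the same order, so this share leaves out more of the normal members. No sort or gate on the cells was described. Shares are of dissociated cells, and what the digestion released from each bladder was not measured.

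**Figure D1:**
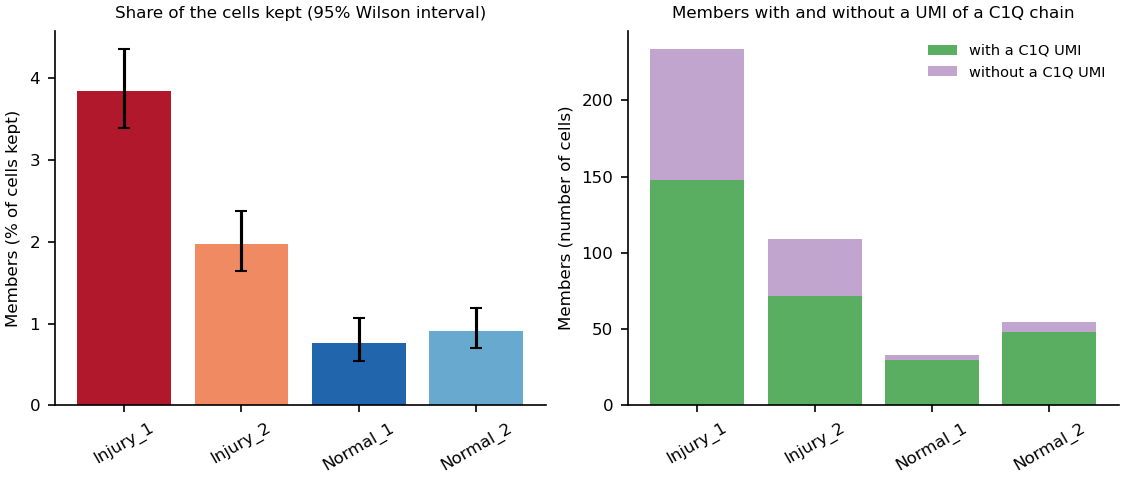
Left, members as a percentage of the cells kept in each library (bars) with 95% Wilson intervals (lines). Right, number of members with (green) and without (purple) a UMI of a C1Q chain; the injured libraries stand at 3.85% and 1.97%, the normal ones at 0.766% and 0.913%, and cells without C1Q are 86 and 37 of the injured members.

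Within the injured libraries, the members with and without a C1Q UMI differed in other genes, given here as a description because the division was made after the values were seen. MMP12, the macrophage elastase, stood at 237 CPM in the C1Q-detected members of Injury_1 and at 26.6 CPM in the rest, and at 78.3 and 0 CPM in Injury_2. SERPINB2, an inhibitor of plasminogen activators, stood at 274 and 67.3 CPM in Injury_1 and at 127 and 0 CPM in Injury_2. ATP6V0D2, a proton pump subunit of macrophages and osteoclasts, stood at 104 and 28.3 CPM and at 230 and 45.2 CPM. Among the members, these 3 genes were thus higher beside C1Q in both injured rabbits, but in few cells. SERPINB2 was found in 4.70% and 1.83% of the members of Injury_1 and Injury_2, MMP12 in 7.69% and 2.75%, and ATP6V0D2 in 11.97% and 22.02%, against at most 0.691% of the injured fibroblasts for any of them. The SERPINB2 and MMP12 levels of Injury_2 rest on the fewest cells. The 3 genes were not confined to cells with C1Q. In the myeloid cells without C1Q, a set described below, MMP12 was found in 8.26% in Injury_1 and 10.2% in Injury_2. ATP6V0D2 was found there in 10.6% and 19.2%, and the SERPINB2 level of that set is given with it.

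The opposite held for a pair of genes of monocytes and early wounds. S100A9, a calcium-binding protein abundant in neutrophils and monocytes, stood at 127 CPM with C1Q and 446 CPM without it in Injury_1, and at 93.9 and 172 CPM in Injury_2. THBS1, the matrix protein thrombospondin-1, stood at 3564 and 5090 CPM and at 3049 and 5714 CPM. AIF1 was alike in both, at 2730 and 3004 CPM in Injury_1 and at 2688 and 2690 CPM in Injury_2. The levels of STAB1, IGF1, CCL2 and ARG1 differed by less than those of MMP12 or SERPINB2, as the plot of the injured members by C1Q detection shows.

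**Figure D2:**
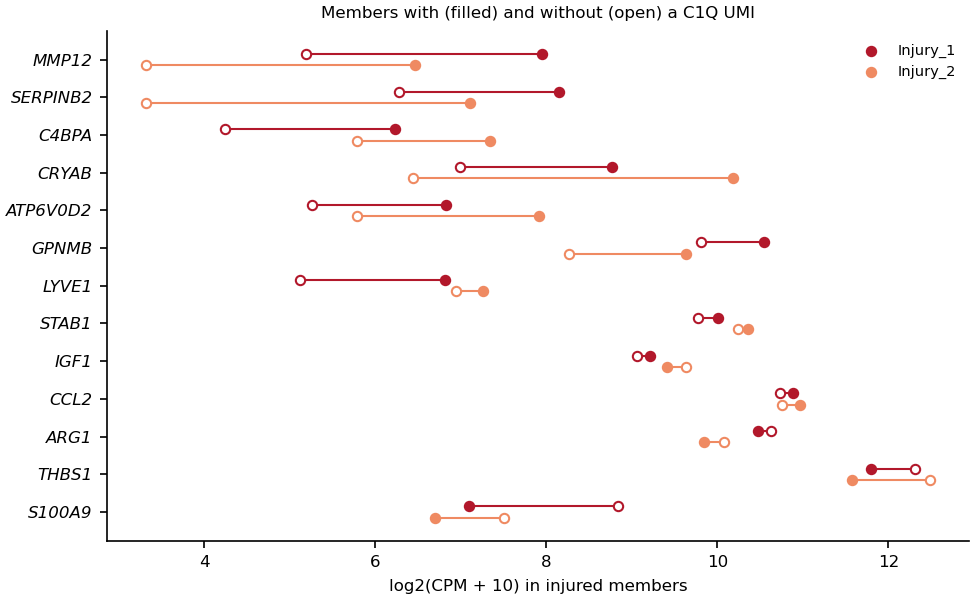
Level in the injured members with a C1Q UMI (filled points) and without one (open points), as log2(CPM + 10), for 13 genes in Injury_1 (dark red) and Injury_2 (orange). MMP12, SERPINB2, C4BPA, CRYAB, ATP6V0D2 and GPNMB lie higher in the cells with C1Q in both libraries, and THBS1 and S100A9 lie higher in the cells without it.

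The members were next compared with the cells most like them. This set, called myeloid cells without C1Q, had no UMI of a C1Q chain, fewer than 3 of the 6 markers, at least 3 of the myeloid genes AIF1, FCER1G, CD68, CSF1R and MPEG1, little DCN, LUM, S100A8 and S100A9, and fewer than 2 of the lymphocyte genes. It held 218, 245, 40 and 22 cells in Injury_1, Injury_2, Normal_1 and Normal_2, at median depths of 7108, 7741, 6466 and 9161 UMIs, and made up 4.01 ± 0.598% of the injured and 0.647 ± 0.398% of the normal cells (SD, n = 2 each). UMIs were summed per library and set and compared with the quasi-likelihood test of edgeR with the library as a block, on genes that neither rule used. Of 3034 genes tested, 184 (6.06%) were higher and 184 (6.06%) lower in the members at an adjusted p under 0.05. Without Injury_2 the calls fell to 15 higher and 4 lower. They were 60 and 63 without Normal_1, 86 and 61 without Normal_2, and 46 and 25 without the block. With no scaling beyond the UMI total, 261 genes were called higher and 123 lower, so the even split of the directions depended on the scaling.

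The 8 genes named on the higher side included receptors and adaptors of uptake, secreted factors and a complement regulator. STAB1, a scavenger receptor of macrophages and sinusoidal endothelium, stood at 967, 1272, 895 and 972 CPM in the members of Injury_1, Injury_2, Normal_1 and Normal_2, and at 107, 185, 19.1 and 0 CPM in the myeloid cells without C1Q. Its log2 fold change was 3.71 (SE 0.55, edgeR adjusted p = 0.00963). DAB2, an adaptor for clathrin-mediated uptake, was higher by 3.16 (SE 0.52, edgeR adjusted p = 0.0146) with 655, 992, 1540 and 701 CPM in the members and 128, 206, 19.1 and 31.5 CPM in the others. The members exceeded the comparison cells in every rabbit for both genes. Left out in turn, a library took the adjusted p to at most 0.053 for STAB1 and 0.0635 for DAB2.

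IGF1, a growth factor that macrophages release during tissue repair, stood at 563, 709, 846 and 581 CPM in the members against 60.3, 120, 38.3 and 5.25 CPM (log2 fold change 3.38, SE 0.40, edgeR adjusted p = 0.00356). CCL2, the chief attractant of monocytes, stood at 1811, 1899, 4200 and 8335 CPM against 557, 288, 53.6 and 15.8 CPM (4.01, SE 0.96, edgeR adjusted p = 0.0327), with an adjusted p of up to 0.118 when a library was left out. CCL14, a chemokine for monocytes, stood at 1086, 1362, 3330 and 1787 CPM against 98.3, 91.1, 61.2 and 89.3 CPM (4.09, SE 0.32, edgeR adjusted p = 0.00114). In all 4 rabbits these secreted factors were several times higher in the members. CCL2 was also present in the remaining cells of the series, at 327 to 1324 CPM, where CCL14 stood at only 12.6 to 40.0 CPM.

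C4BPA, a chain of the plasma protein that restrains the classical pathway by binding C4b, had the largest fold change among the named genes. It stood at 45.4, 117, 597 and 451 CPM in the members and at 3.02, 0, 3.83 and 0 CPM in the myeloid cells without C1Q (log2 fold change 6.14, SE 0.56, edgeR adjusted p = 0.00199). All other kept cells together held 1.34 to 4.53 CPM, a far lower level. SLC15A2, a transporter of small peptides, stood at 126, 223, 72.6 and 96.8 CPM against 6.03, 11.9, 3.83 and 0 CPM (4.23, SE 0.28, edgeR adjusted p = 0.000622), and the other cells held at most 1.74 CPM. CRYAB, a small heat shock protein, stood at 317, 795, 2814 and 2284 CPM against 65.8, 48.7, 214 and 105 CPM (3.41, SE 0.33, edgeR adjusted p = 0.00203). Unlike C4BPA, CRYAB was more abundant in the rest of the cells of each library, at 1001, 1411, 4234 and 3582 CPM, and the part of RNA from other cells in its level was not tested.

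On the lower side, PLBD1, a phospholipase of granulocytes and monocytes, stood at 69.7, 59.9, 0 and 26.7 CPM in the members and at 303, 358, 631 and 562 CPM in the myeloid cells without C1Q (log2 fold change -3.26, SE 0.50, edgeR adjusted p = 0.0115). P2RY10, a receptor for lysophospholipids on leukocytes, stood at 1.24, 2.99, 0 and 0 CPM against 29.0, 46.6, 80.3 and 42.0 CPM (-4.65, SE 0.46, edgeR adjusted p = 0.00203). SERPINB2 stood at 202, 85.3, 0 and 10.0 CPM against 398, 546, 1813 and 940 CPM (-3.50, SE 0.87, edgeR adjusted p = 0.0361), and its adjusted p reached 0.131 with a library left out. In every rabbit the members had the lower level of all 3 genes.

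The other named genes on that side were SMPDL3B, a membrane sphingomyelinase-like enzyme, CYFIP2, a regulator of actin branching, CYTIP, which loosens the adhesion of activated leukocytes, C1orf54 and TNNI1. Their log2 fold changes lay between -4.04 and -3.17 with adjusted p-values of edgeR of at most 0.0115, and each was lower in the members of all 4 rabbits. The members held at most 28.4 CPM of any of them, and of CYTIP a total of 10 UMIs in the injured and none in the normal libraries.

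**Figure D3:**
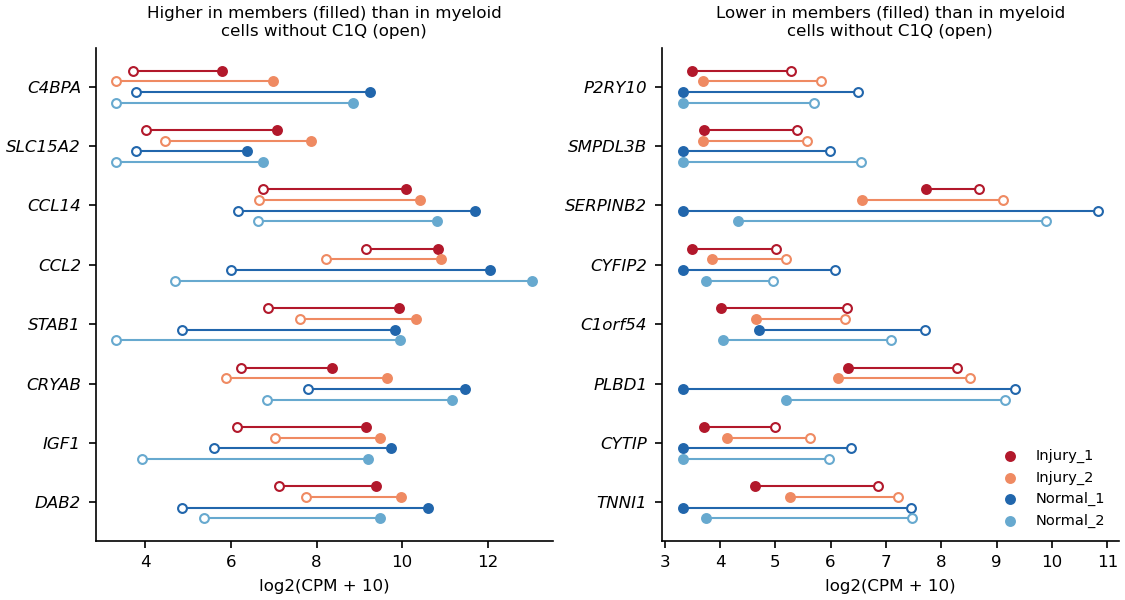
Level as log2(CPM + 10) of the 8 named genes higher (left) and the 8 lower (right) in the members (filled points) than in myeloid cells without C1Q (open points), joined within each library. The filled point lies on the same side of the open one in all 4 libraries for all 16 genes.

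Lists of macrophage genes were then counted in that comparison. All 5 tested genes of the tissue-resident list were called higher (LYVE1, IGF1, SLCO2B1, GPR34 and COLEC12), with a median log2 fold change of 2.85 against 0.03 for all genes tested. LYVE1, a hyaluronan receptor of perivascular macrophages and lymphatic vessels, stood at 75.3, 133, 314 and 177 CPM in the members and at 10.3, 16.1, 26.8 and 0 CPM in the others. GPR34, a lysophosphatidylserine receptor, stood at 39.2, 53.9, 218 and 93.5 CPM against 4.83, 12.9, 11.5 and 0 CPM. Of the scavenger and phagocytic receptors, 5 of 12 were called higher (MSR1, STAB1, MERTK, CD36 and COLEC12), beside 6.06% of all genes. These receptors take up modified lipoproteins, apoptotic cells and other debris.

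Lysosomal genes and genes of iron and heme handling were next. Of 18 lysosomal genes, 6 were called higher (CTSB, CTSC, CTSK, LGMN, GRN and NPC1), and here too the share over all genes was 6.06%. CTSB, a cysteine protease, stood at 6364, 4899, 2306 and 3523 CPM in the members against 2981, 2691, 937 and 620 CPM (log2 fold change 1.25, edgeR adjusted p = 0.0221). Of 7 iron and heme genes, 4 were called higher: HMOX1, which degrades heme, BLVRA, which reduces the biliverdin so formed, SLC40A1, the iron exporter, and SLC11A2, an iron importer. HMOX1 stood at 150, 154, 80.6 and 200 CPM against 48.9, 33.1, 7.65 and 31.5 CPM, and SLC40A1 at 26.8, 40.4, 88.7 and 43.4 CPM against 9.05, 4.66, 0 and 5.25 CPM. Both were higher in the members of all 4 rabbits.

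Of the 7 complement genes tested beside the C1Q chains, C2, a protease of the classical pathway, C1S, another of its proteases, and VSIG4, a receptor for C3b, were called higher. CFP, the properdin that stabilises the alternative pathway, was called lower. Over all genes tested, 6.06% were called in each direction. C2 stood at 883, 494, 645 and 604 CPM in the members and at 284, 89.1, 19.1 and 5.25 CPM in the comparison cells (2.86, SE 0.54, edgeR adjusted p = 0.0193). CFP stood at 297, 178, 80.6 and 167 CPM in the members (-1.59, SE 0.28, edgeR adjusted p = 0.0189). The directions within the list thus differed between its members. At 1000 UMIs per cell, C1S was found in 1.67 to 5.38% of the members and in 25.4 to 33.4% of the fibroblasts. The part of fibroblast RNA in its level was not tested.

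Inflammatory and antigen-presenting genes were counted in the same comparison. Of 13 monocyte and inflammatory genes, 3 were called lower by edgeR, namely TNF, PLAC8 and IL1RN, beside 6.06% of all genes, with 5 lower at an unadjusted p under 0.05 and 4 by DESeq2. In the higher direction there were 0 by all 3 criteria. IL1B, the main secreted interleukin-1, reached 42182, 37734, 37052 and 71967 CPM in the members and 53811, 46498, 47573 and 64661 CPM in the comparison cells (-0.38, edgeR adjusted p = 0.0781). The neutrophil attractant CXCL8 reached 43952, 52632, 22388 and 45575 CPM in the members and was called higher (0.51, edgeR adjusted p = 0.0265). Transcripts of IL1B alone thus filled several percent of all UMIs in both sets and in both conditions. Of 11 genes of the MHC class II and antigen presentation list, 1 was called lower by edgeR, the proteasome subunit PSMB8, beside 6.06% of all genes. At an unadjusted p under 0.05, 4 of the list were lower, and 3 by DESeq2. In the higher direction there were 0 by edgeR, 1 at an unadjusted p under 0.05 and 0 by DESeq2. CD74, the invariant chain, had a log2 fold change of -0.79 and HLA-DRA one of -1.16. Both missed the threshold by edgeR (adjusted p = 0.0524 and 0.0561) and were called lower by DESeq2 (adjusted p = 0.0266 and 0.0198).

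Stress and immediate early genes were a further group, with 8 of 13 called higher (FOS, JUN, EGR1, IER3, HSPA8, HSPB1, DUSP1 and ZFP36). For this and the following lists, the share called over all genes was 6.06% in each direction. HSPB1, a small heat shock protein, stood at 1704, 4149, 11867 and 5190 CPM in the members, at 1089, 1438, 1599 and 841 CPM in the comparison cells and at 4051 to 9248 CPM in all other cells. These genes respond to dissociation of tissue and are abundant in the other cells. The part of either in the difference was not tested. Of 15 transcription factors, 7 were called higher: EGR1, FOS and JUN again, and HIF1A, BACH1, PPARG and TCF4. Of 14 genes of the lipid-associated and repair list, CTSB, PLIN2, ABCA1 and PPARG were called higher and CAPG and VIM lower.

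Growth factor genes called higher were PDGFC, IGF1 and GRN out of 10 tested, with IL1RN lower, beside 6.06% of all genes each way. Among 6 proteases and inhibitors TIMP1 was higher with MMP12 and SERPINB2 lower. All 3 chemokines tested, CCL2, CCL14 and CXCL8, were higher. Of 9 genes of glycolysis and hypoxia HIF1A was higher and GPI lower. Of 6 interferon response genes 0 passed by edgeR, against 3 higher at an unadjusted p under 0.05 and 1 higher by DESeq2. Neither of 2 cell cycle genes passed by any of these criteria, and ARG1, the gene tested of arginine metabolism, was lower at an unadjusted p under 0.05 alone (log2 fold change -0.44, edgeR adjusted p = 0.133).

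Genes of other cell types were counted in the members as a whole. Fibroblast genes (8 of the 12 listed carried a symbol, 7 were detected) held 0.0506, 0.0504, 0.0218 and 0.214% of the members' UMIs in Injury_1, Injury_2, Normal_1 and Normal_2, against 1.00 to 5.32% in all other cells. Endothelial genes held 0.0438, 0.0341, 0.102 and 0.0468%, and smooth muscle and pericyte genes 0.0205, 0.00628, 0.0492 and 0.0564%. Neutrophil genes held 0.0514, 0.0183, 0 and 0.00367% with LTF at a single-UMI level in Injury_1 and at 0 elsewhere. Epithelial genes held 0.0129 to 0.0364% of the members' UMIs, B and plasma cell genes at most 0.000806%, and mast cell genes 0.0153 to 0.0414%. Dendritic cell genes held 0.00501 to 0.0124%, XCR1 being at 0 throughout, and glial genes at most 0.0033%. T and NK cell genes held 0.0151, 0.0314, 0.0742 and 0.0992%, almost all of it IL7R, while PRF1 had a single UMI in Injury_1 and 0 elsewhere. Each foreign share was thus a small part of the members' UMIs, with fibroblast genes highest in Normal_2 and endothelial genes highest in Normal_1. It was not always far below that of all other cells. These held 0.0412% of neutrophil genes in Injury_1 and 0.0401% of epithelial genes in Normal_2, while elsewhere both lists lay lower in the members. Endothelial genes held 0.191% of the other cells' UMIs in Normal_1. The T and NK, mast and dendritic lists were higher in the members than in all other cells in every library. All other cells held 0.000892 to 0.00798%, 0.00679 to 0.0115% and 0.000976 to 0.00167% of these lists, in that order. In the top 5% of doublet scores lay 11, 2, 7 and 1 members, the 7 being among 33 in Normal_1. ACTA2, a smooth muscle actin, was the single gene of these lists called in the comparison with myeloid cells (higher, 1.91, edgeR adjusted p = 0.0284).

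The injury question was asked on the members alone, summed per library. The sums held 1606460 and 668283 UMIs in the injured and 124041 and 299443 UMIs in the normal libraries, so a level of 8.06 CPM in Normal_1 is a single UMI, as for GPNMB there. Of 3267 genes tested, 0 (0%) passed an adjusted p under 0.05 in the quasi-likelihood test of edgeR, the smallest adjusted p being 0.124. At an unadjusted p under 0.05 there were 168 genes higher and 161 lower, and DESeq2 on the same sums called 14 higher and 24 lower. The edgeR count rose whenever a library was left out: to 7 higher and 14 lower without Injury_1, 15 and 17 without Injury_2, 26 and 58 without Normal_1, and 104 and 67 without Normal_2. With a lone library in a group, its spread is assumed to be that of the other group. Both injured members lay above both normal ones for 826 genes (25.3%) and below them for 515 (15.8%). The genes named next were taken by the smallest unadjusted p among genes without overlap, and none of them was called by edgeR.

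GPNMB, a transmembrane glycoprotein of lysosome-rich macrophages, had the lowest p on the higher side. It stood at 1279 and 622 CPM in Injury_1 and Injury_2 and at 8.06 and 20.04 CPM in Normal_1 and Normal_2, where it rested on 1 and 6 UMIs. The log2 fold change was 5.78 (SE 0.62, edgeR adjusted p = 0.124). DESeq2 called GPNMB higher. The myeloid cells without C1Q showed the same order, with 866 and 883 CPM in the injured and 0 CPM in both normal libraries, whereas all other cells stood at 91.1, 92.2, 36.6 and 103 CPM. After thinning to 1000 UMIs, GPNMB was found in 25.5%, 21.5%, 0.744% and 1.40% of the members (a difference of 22.5 points, two-sided exact permutation p = 0.33, the lowest possible) and in 6.26 to 12.2% of the fibroblasts. The normal members thus lay below the fibroblasts and the injured members above them.

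The GPNMB transcripts of the injured libraries were spread over 90 of 234 members in Injury_1 and 43 of 109 in Injury_2, with median depths of 7151 UMIs against 6254 in the members without it and of 6388 against 5262. MMP12 was found in 18 members of Injury_1, 16 of which also had GPNMB, and in 3 members of Injury_2, all 3 of which had it. ATP6V0D2 was found in 28 and 24 members, of which 25 and 19 had GPNMB. LYVE1 went otherwise, being found in 22.2% of the members with GPNMB and 21.5% of those without in Injury_1, and in 23.3% and 45.5% in Injury_2. CCL14 stood at 726 CPM in the members with GPNMB and 1358 CPM in those without in Injury_1, and at 803 and 1801 CPM in Injury_2. These divisions were made after the values were seen and rest on cells of 2 rabbits.

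ATP6V0D2 stood at 77.2 and 169 CPM in the injured and at 8.06 and 0 CPM in the normal members, and the comparison cells at 91.7, 141, 3.83 and 5.25 CPM. With 1 UMI in the normal members, the pooled ratio was 44.1 with a counting interval of 7.84 to 1750. CREG1, a secreted lysosomal glycoprotein, stood at 146, 123, 32.2 and 33.4 CPM (log2 fold change 1.94, SE 0.37, edgeR adjusted p = 0.218).

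S100A9 stood at 239, 120, 0 and 10.0 CPM, a pooled ratio of 28.8 (9.79 to 140) on 3 normal UMIs. The other cells of the same libraries held 216, 112, 93.2 and 102 CPM of it. The sums of the injured members thus lay near the level of their surroundings and those of the normal members below theirs. S100A8, its partner, stood at 268, 58.4, 0 and 26.7 CPM. These 2 genes make up nearly all of the neutrophil list's share given above, and the part of neutrophil RNA was not tested. A UMI of that list was found in only 27.8% and 12.8% of the members of Injury_1 and Injury_2. S100A8 and S100A9 reached 0.2% of UMIs, the limit of the comparison set, in 15, 3, 0 and 0 members of the 4 libraries. The summed level therefore need not be that of most members.

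On the lower side, CX3CR1, the fractalkine receptor of resident macrophages and patrolling monocytes, stood at 6.85 and 4.49 CPM in the injured and at 145 and 63.5 CPM in the normal members (log2 fold change -3.99, SE 0.50, edgeR adjusted p = 0.124). It was found in 0.716%, 0.474%, 14.02% and 6.08% of the members at 1000 UMIs and in at most 0.0176% of the fibroblasts. DNASE1L3, a secreted nuclease that digests DNA of dying cells, stood at 106 and 229 CPM in the injured and at 2024 and 1997 CPM in the normal members (-3.63, SE 0.47, edgeR adjusted p = 0.124). At 1000 UMIs it was found in 7.49%, 11.5%, 64.8% and 68.3% of the members. The myeloid cells without C1Q had the same order for DNASE1L3, with 60.3 and 212 CPM against 945 and 552 CPM, but held at most 7.65 CPM of CX3CR1 in any library. DESeq2 called both CX3CR1 and DNASE1L3 lower.

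The other 3 genes named on the lower side were abundant in other cells. MYH11, the smooth muscle myosin heavy chain, stood at 21.2, 14.96, 193 and 107 CPM in the members and at 137, 162, 171 and 238 CPM in all other cells (log2 fold change -2.96, SE 0.38, edgeR adjusted p = 0.124). ITGA6, a laminin-binding integrin chain, stood at 25.5, 31.4, 169 and 140 CPM against 110, 94.2, 203 and 144 CPM. CCND2, a D-type cyclin, stood at 48.6, 41.9, 218 and 157 CPM against 227, 186, 239 and 176 CPM. In the normal members ITGA6 and CCND2 thus lay near the level of the surrounding cells, and MYH11 did so in Normal_1 but not in Normal_2. The smooth muscle list held 0.0492 and 0.0564% in the members of Normal_1 and Normal_2, against 0.0861 and 0.219% in all other cells. A UMI of it was found in 18.2% and 30.9% of these members. The part of RNA from other cells was not tested. Without the 1 to 5 members per library in which genes of other cell types reached 0.5% of UMIs, edgeR again called 0 genes in either direction, as it did with only C1Q-detected members.

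**Figure D4:**
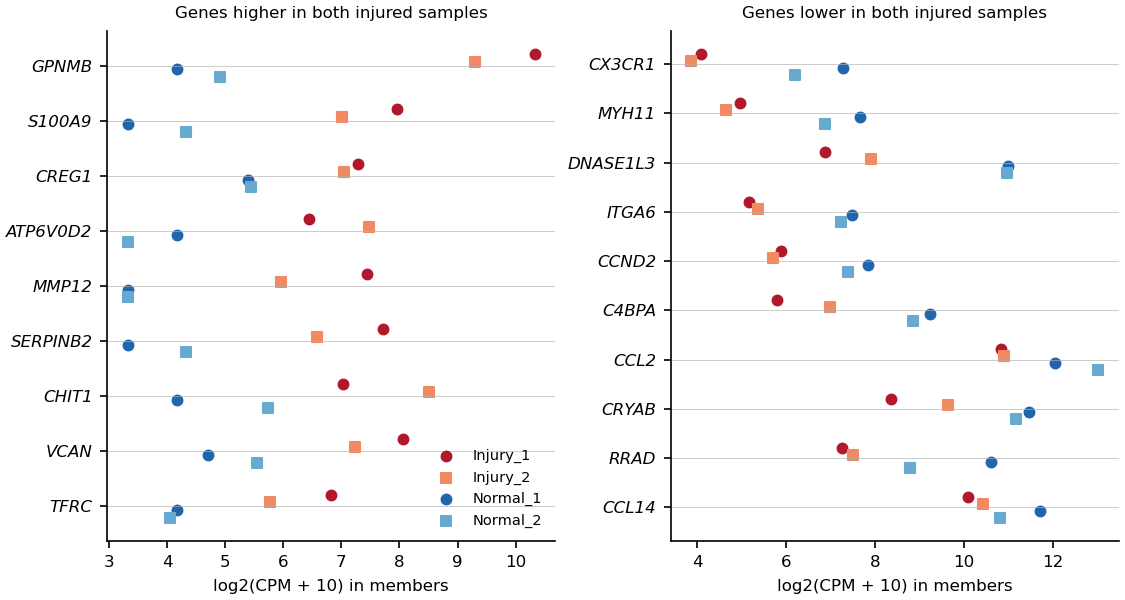
Level in the members as log2(CPM + 10) in Injury_1 (dark red circles), Injury_2 (orange squares), Normal_1 (dark blue circles) and Normal_2 (light blue squares) for 9 genes higher (left) and 10 lower (right) in both injured libraries. The first 4 on the left and the first 5 on the right follow the rule for named genes, and the others were chosen after their values were seen; GPNMB stands at 1279 and 622 CPM against 8.06 and 20.04 CPM.

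The macrophage markers that the study used were compared in the same way. ARG1, the arginase that competes for the substrate of nitric oxide synthesis, stood at 1475 and 965 CPM in the injured and at 2773 and 2705 CPM in the normal members (log2 fold change -1.21, SE 0.33, edgeR adjusted p = 0.314). Its share at 1000 UMIs, 60.1%, 45.9%, 66.6% and 60.9%, had overlap-free groups and a difference of -10.7 points (two-sided exact permutation p = 0.33), with only 60.1% against 60.9% at the boundary. At 2000 UMIs the shares were 74.6%, 61.3%, 83.1% and 72.7% and overlapped (two-sided exact permutation p = 0.67). Without thinning the shares were 86.8%, 78.9%, 75.8% and 70.9%, with the opposite sign. Fibroblasts showed 0.134 to 0.586% at 1000 UMIs. AIF1 stood at 2826, 2689, 1862 and 2144 CPM (0.40, edgeR adjusted p = 0.714), HLA-DRA at 6087, 3925, 1766 and 3977 CPM (0.69, adjusted p = 0.711 by edgeR), and CD74 at 3130, 2568, 1612 and 2668 CPM (0.32, edgeR adjusted p = 0.845). Of these only AIF1 had groups without overlap, and none was called.

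Several further genes outside the rule for named genes were looked at, chosen after their values were seen. MMP12 was detected in the injured members at 163 and 52.4 CPM and was 0 in both normal libraries, at least 18.4-fold higher for the pooled injured members against 3 UMIs over the normal group. Injury_1 gave 262 of the 297 injured UMIs, and Injury_2 alone gives a bound of at least 7.39-fold. SERPINB2 stood at 202, 85.3, 0 and 10.0 CPM, and TFRC, the transferrin receptor, at 103, 44.9, 8.06 and 6.68 CPM. CHIT1, a chitinase of activated macrophages, stood at 120, 356, 8.06 and 43.4 CPM, and VCAN, a matrix proteoglycan also made by monocytes, at 258, 141, 16.1 and 36.7 CPM. Each lay higher in both injured libraries, and DESeq2, but not edgeR, called MMP12, SERPINB2, CHIT1 and VCAN.

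SPP1, the osteopontin gene linked with repair macrophages, stood at 388, 205, 210 and 174 CPM in the members, with overlapping groups, and at 430 to 3739 CPM in all other cells. C4BPA, CCL2, CCL14 and CRYAB, described above as higher in the members than in other myeloid cells, lay lower in both injured than in both normal libraries. Of these DESeq2 called C4BPA, CCL2 and CRYAB. The C4BPA share at 1000 UMIs was 3.26%, 7.54%, 40.4% and 34.3%, and that of CCL14 was 38.5%, 49.2%, 86.0% and 62.5% (exact permutation p = 0.33 for each, two-sided). In fibroblasts they were at most 0.675% and 0.165%. IL7R, the interleukin-7 receptor, stood at 146, 314, 742 and 975 CPM in the members and at 3.77 to 21.7 CPM in all other cells. At 1000 UMIs it was found in 10.8%, 22.1%, 44.9% and 56.7% of the members. In the myeloid cells without C1Q the shares were 11.2%, 18.5%, 9.44% and 23.3%. The part of RNA from other cells in its level was not tested.

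The gene lists showed how far these genes moved in company. Of 7 tissue-resident genes, 5 lay below both normal libraries in both injured ones (LYVE1, CX3CR1, SLCO2B1, GPR34 and COLEC12) and 0 above. Over all genes, 15.8% lay below and 25.3% above. The median log2 fold change of the list was -0.72 against 0.02 for all genes. LYVE1 stood at 75.3 and 133 CPM against 314 and 177 CPM, and GPR34 at 39.2 and 53.9 CPM against 218 and 93.5 CPM, without an edgeR call for either. IGF1, a gene of the same list, had overlapping groups. At an unadjusted p under 0.05, 3 of the 7 were lower, and DESeq2 called 1, CX3CR1.

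Of 14 lipid-associated and repair genes, 9 lay above (GPNMB, LPL, FABP5, LGALS3, CTSB, CHI3L1, FN1, ANXA1 and VIM) and 1 below (PPARG), with a median of 1.16. The shares over all genes were 25.3% above and 15.8% below. At an unadjusted p under 0.05, 5 were higher and 1 lower, and DESeq2 called GPNMB and ANXA1. ANXA1, an anti-inflammatory phospholipid-binding protein, stood at 3906, 4345, 1330 and 1489 CPM, and VIM, the mesenchymal intermediate filament, at 6308, 5318, 1693 and 2361 CPM. ANXA1 and VIM are also made by stromal and epithelial cells, and ANXA1 stood at 2018 to 3420 CPM in all other cells. Of 15 monocyte and inflammatory genes, 11 lay above and 1 (TNFAIP3) below, against the same shares over all genes. Their median was 1.10, and at an unadjusted p under 0.05 there were 6 higher and 1 lower. Among them, THBS1 stood at 4100, 3931, 1298 and 1727 CPM and the co-receptor for lipopolysaccharide CD14 at 1886, 1326, 605 and 812 CPM. IL1B, at the values given above, had overlapping groups.

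Of 19 lysosomal genes, 12 lay above and 2 (NPC1 and TFEC) below, with a median of 0.38, where 25.3% of all genes lay above and 15.8% below. CTSK, a collagen-degrading protease, stood at 5022, 4117, 1895 and 2682 CPM, and the legumain gene LGMN at 2998, 2798, 1483 and 1817 CPM. For CTSB the values 6364 and 4899 CPM stood against 2306 and 3523 CPM. Of 11 genes of antigen presentation, 4 lay above (HLA-DMA, HLA-DQB1, B2M and CTSS) and 1 (CD83) below. Of 7 complement genes, 3 lay above (C1R, C1S and CFP) and 0 below. C1R was found at 1000 UMIs in 2.97 to 27.8% of the members and in 79.3 to 92.5% of the fibroblasts. C1S was likewise found more often in fibroblasts, and the part of fibroblast RNA was not tested. Of 13 scavenger receptors, 5 lay above (SCARB2, FCER1G, CD68, CD14 and TLR2) and 3 below (MSR1, MERTK and COLEC12), a split within the list.

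The other lists are given by their counts, against shares of 25.3% above and 15.8% below over all genes. Growth factors had 4 of 10 above and 1 below, proteases and inhibitors 4 of 6 above (MMP12, ADAM10, PLAU and SERPINB2) and 2 below (TIMP1 and TIMP3), and transcription factors 3 of 15 above and 2 below. Glycolysis had 3 of 8 above and 0 below, iron and heme handling 1 of 8 each way (TFRC above, SLC40A1 below), and stress genes 1 of 13 each way (DUSP1 above, HSPB1 below). None of 7 interferon genes was without overlap. Both cell cycle genes tested, PCNA and AURKB, lay below, as did ARG1, and of 3 chemokines CCL2 and CCL14 lay below. Fibroblast genes had 0 of 3 without overlap, while both endothelial genes tested (PECAM1 and SELP), 2 of 3 smooth muscle genes (MYH11 and Tpm2) and 1 of 2 epithelial genes (KRT18) lay below. IL7R, the gene tested of the T and NK list, lay below, both neutrophil genes tested (S100A8 and S100A9) lay above, and so did CADM1 of the dendritic list, while SRGN of the mast list had overlapping groups. No gene of the B and plasma or glial lists had enough counts to be tested.

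**Figure D5:**
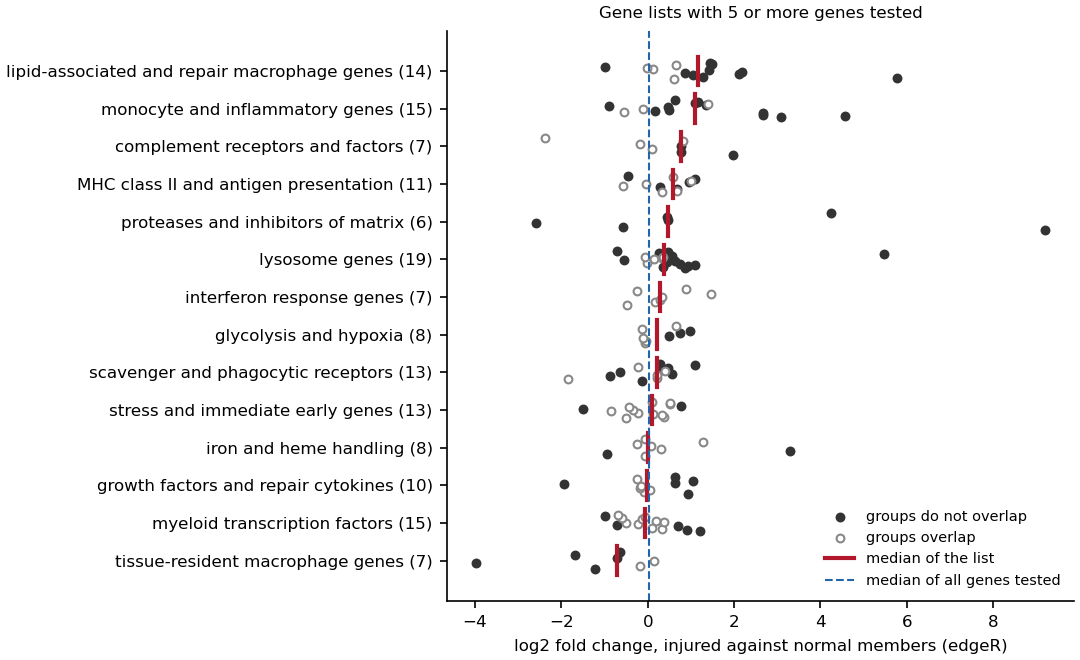
Log2 fold change of injured against normal members by edgeR for the tested genes of each list with 5 or more genes (number in brackets). Filled points have groups that do not overlap, the red bar is the list median and the dashed line the median of all genes, 0.02; list medians run from -0.72 for tissue-resident genes to 1.16 for lipid-associated and repair genes, no gene was called, and the rightmost point is MMP12, whose fitted value depends on a prior because its normal count was 0.

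Whether a difference between conditions was larger or smaller in the members than in the remaining cells was tested as a difference of 2 effects in a single edgeR fit with the library as a block. Of 9271 genes, 34 (0.367%) had an effect more positive in the members and 166 (1.79%) one more negative, around a median of 0.13 over all genes. Without Injury_1 the counts were 4 and 56, without Injury_2 they were 8 and 49, without Normal_1 they were 55 and 244, and without Normal_2 they were 76 and 92. GPNMB had the effect of 5.61 relative to other cells (edgeR adjusted p = 1.4e-23), and CX3CR1 and DNASE1L3 had -5.99 and -3.10 (edgeR adjusted p = 7.03e-10 and 5.88e-14). C4BPA had -3.81 and CCL2 -3.22 (adjusted p by edgeR 8.01e-20 and 9.13e-18), CCL2 standing at 1324 and 887 CPM in the other injured cells and at 327 and 382 CPM in the other normal cells. With 2 rabbits per condition, such small p-values rest on a spread that edgeR estimates in part across all genes. GPNMB, CX3CR1 and DNASE1L3 were named by their injury p in the same member sums. C4BPA and CCL2 were looked at for injury after their values were seen. For these genes the test is therefore not independent support. In the members alone, edgeR called 0 genes, the smallest adjusted p being 0.124. The remaining cells differ in makeup between the conditions, so a smaller number of cells of a type and less RNA of a gene per cell cannot be told apart in their sum.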

How the data were processed

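For each of the 4 libraries the authors deposited UMI counts by gene and barcode, as whole numbers without normalization, made with Cell Ranger 6.0.1 per the file headers. The genome release is not given in the sources used here, and 9769 of 18475 genes carried a symbol. A cell was kept if it had 500 or more UMIs, 200 or more genes and no more than 15% of its UMIs in 13 mitochondrial genes. No clustering was used. Scrublet (scanpy 1.11.5) scored doublets, which were removed only as an alternative. The comparison rule lists 8 myeloid genes, of which 5 carry a symbol.

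Counts summed per library and cell set were tested with edgeR 4.0.16 in R 4.3.3 (filterByExpr, TMM, quasi-likelihood, Benjamini-Hochberg at 0.05 over all genes tested), and DESeq2 1.42.0 was an alternative. Genes of the cell rules stayed in the library sizes and out of the tests. Shares were compared by two-sided exact permutation tests over libraries, and detection at 1000 UMIs per cell as the expectation over draws. Of these methods only the edgeR fits were run on simulated counts, and the outcome is not given here. Genes were named by rule: genes of the cell rules, the study's markers CD74, HLA-DRA, AIF1 and ARG1, the 10 (8 for the comparison with myeloid cells) largest called changes each way with a symbol, no overlap and a mean of 20 CPM or more in the higher group, filled up to 5 by unadjusted p (some genes so named are not reported here), and of each list the 4 most abundant members and every called one. The members, lists and tests were chosen with earlier results of these data known. Alternatives were other scalings, no filter, stricter cell limits, 2 or 4 markers, doublet removal, thinning to 2000 UMIs or none, no library block, the replicate number as a block, and each library left out. Leaving out members high in genes of other cell types and keeping only C1Q-detected members were added after the data were seen.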

Additional observations from a re-analysis of the deposited data

Results flagged for a closer look

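Several named genes had an effect of injury in the C1Q macrophages that differed from the effect in all other cells by the interaction test of edgeR, with values given as the difference of the 2 log2 fold changes. More positive in the macrophages were GPNMB (5.61), S100A9 (3.99) and CREG1 (1.68, adjusted p = 0.0267 by edgeR, the weakest of these). In the member sums, S100A9 stood near the level of the surrounding cells in the injured libraries and below it in the normal ones. More negative were CX3CR1 (-5.99), DNASE1L3 (-3.10), MYH11 (-2.35), ARG1 (-2.10), CCND2 (-1.97), ITGA6 (-1.67), AIF1 (-1.60) and CD74 (-1.18, edgeR adjusted p = 0.0369). For AIF1 and CD74 the macrophages had positive fold changes of 0.40 and 0.32, and the other cells held 60.0 and 23.1 CPM of AIF1 in the normal and 165 and 162 CPM in the injured libraries, and 117 and 68.2 CPM against 280 and 300 CPM of CD74. Among those other cells were 463 myeloid cells without C1Q in the injured and 62 in the normal libraries, and the part of this in the difference was not tested. GPNMB, S100A9, CREG1, CX3CR1, DNASE1L3, MYH11, CCND2 and ITGA6 were named by their injury p in the same member sums. For them the interaction test is not independent support. Groups of 2 libraries were not examined for a single outlying value.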

How the results depend on the processing

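There were 2 rabbits per condition, and 33 members in Normal_1. In the injury comparison, where edgeR called 0 genes, no filter on low counts gave 64 higher and 98 lower, 2 markers 3 and 5, 4 markers 0 and 1, doublet removal 0 and 1, and DESeq2 14 and 24. With a library left out the counts ran from 7 to 104 higher and from 14 to 67 lower. The replicate number as a block gave 2 higher and 2 lower (replicate block). The labels give no pairing of same-numbered libraries. Their deviations from the group means had r = -0.0751 across 3226 genes, which are not independent replicates. With a single such pair of deviations, this value cannot show whether the numbers carry a pairing. The paired difference in share was the same 2.07 points. Against myeloid cells without C1Q (184 and 184), no filter gave 284 and 340, no library block 46 and 25, and leaving out a library 15 to 175 higher and 4 to 186 lower. The fits without Injury_1 and with all other settings stayed within 1.5 times of those counts. For the difference of effects (34 and 166), leaving out a library gave 4 to 76 and 49 to 244. The difference in share ran from 1.13 to 3.01 points with a library left out, and was 4.20 with 2 markers, 1.05 with 4 and 1.12 for C1Q-detected members. The ARG1 detection difference of -10.7 points was -9.97 at 2000 UMIs, with overlap, and 9.49 without thinning. The CD74 log2 fold change ran from -0.13 (without Normal_1) to 1.06 (without Normal_2). The causes were not tested.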
